A study of Mus musculus with 2 samples.

Results

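The insulin-like growth factor (IGF) system was examined in endothelium sorted from normal mouse brain, through its ligands Igf1 and Igf2, its receptors Igf1r and Igf2r, and the binding proteins Igfbp2 to Igfbp7. Every probe set that the platform annotation assigns to a single one of these symbols was taken, which gave 28 of the 45101 probe sets and 10 of the 18194 genes on the array. Cells were isolated from the brain vasculature of C57BL/6 mice by fluorescence-activated cell sorting for CD31, an endothelial surface protein, and for Prominin 1 (Prom1, CD133). CD31+ Prom1+ cells were set against CD31+ Prom1- cells, both from normal tissue with no treatment named. Total RNA of each was amplified, labeled with biotin and hybridized to 1 Affymetrix Mouse 430 2.0 array, and how many mice it came from is not given in the sources used here. The study asked which factors Prom1+ endothelium makes that could act on neighboring glioma cells.

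IGF1 and IGF2 are secreted growth factors that act through the tyrosine kinase receptor encoded by Igf1r, whereas the receptor encoded by Igf2r takes up IGF2 and sends it to lysosomes. In blood and tissue the ligands are held by binding proteins, which prolong their life, keep them from the receptor or release them once cleaved by proteases. Brain endothelium carries receptors for IGFs and insulin that take these hormones across the blood-brain barrier.

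On the Prom1+ array 3 of the 10 genes, Igf2, Igfbp2 and Igfbp5, were at least 2-fold lower than on the Prom1- array, and none was at least 2-fold higher by its brightest probe set. Igfbp3 was the only member with a probe set at least 2-fold higher. The brightest probe sets of Igf1r, Igf2r, Igfbp4 and Igfbp7 differed by less than 2-fold, and Igf1 and Igfbp6 were too dim to measure on either array. Since each population was hybridized once, there is no error between replicates, no p-value could be made, and none of these differences has been repeated. In bulk RNA, fewer cells of a type and less RNA per cell cannot be told apart.

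Signals are given as multiples of the median of their own array. A signal under a floor of 1.67 times the median was read as not measured and raised to the floor, so that a fold is a lower bound where either signal was raised, and none is given where both were. Levels of different probe sets cannot be set against each other. Pecam1, which encodes CD31, had 69.2 times the median on the Prom1+ array and 48.2 times on the Prom1- array, and the endothelial genes Kdr (69.0 and 55.3 times) and Cdh5 (33.8 and 19.8 times) were bright on both. Prom1 itself was not higher on the array labelled Prom1+. Its brightest probe set had 159 times the median there and 196 times on the array labelled Prom1-. Each array is therefore called by its label, and every direction rests on these labels. Over the 17488 probe sets measured on both arrays, the median log2 ratio, Prom1+ over Prom1-, was 0.66. This shift depended on signal, at 0.87 for a mean log2 signal of 3 to 4 and -0.64 for 8 to 9. It was -0.23 for 7 to 8, where Prom1 itself had a log2 ratio of -0.30. Each member is therefore also set beside the 1000 probe sets nearest to it in mean log2 signal. The closest measure of technical error within this pair was how far probe sets of the same gene disagreed. Their SD was 0.54 in log2 ratio over 3930 genes, before any correction of the shift with signal. It covers neither errors that all probe sets of a gene share nor the spread between animals.

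Of the 28 IGF probe sets, 17 reached the floor on both arrays and 4 on a single array, while 7 stayed under it. Among the 21 measured, 1 was at least 2-fold higher on the Prom1+ array, or 4.76%, where 28.0% of all measured probe sets were. At least 2-fold lower were 3, or 14.3%, where 4.13% of all measured probe sets were. Of the remaining 17, 3 had a signal under the floor on 1 array and a lower bound under 2-fold, so that their fold is not known, and the others differed by less than 2-fold. The median log2 ratio over the 21 was 0.07, beside 0.64 over all 19003 measured probe sets, so that the family lay below the general shift between the arrays. By gene, 0 of 8 measured members were higher against a background of 28.2%, and 3 were lower against 4.77%. The median log2 ratio of the member genes was -0.31, beside 0.66 over 10793 measured genes.

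**Figure D1:**
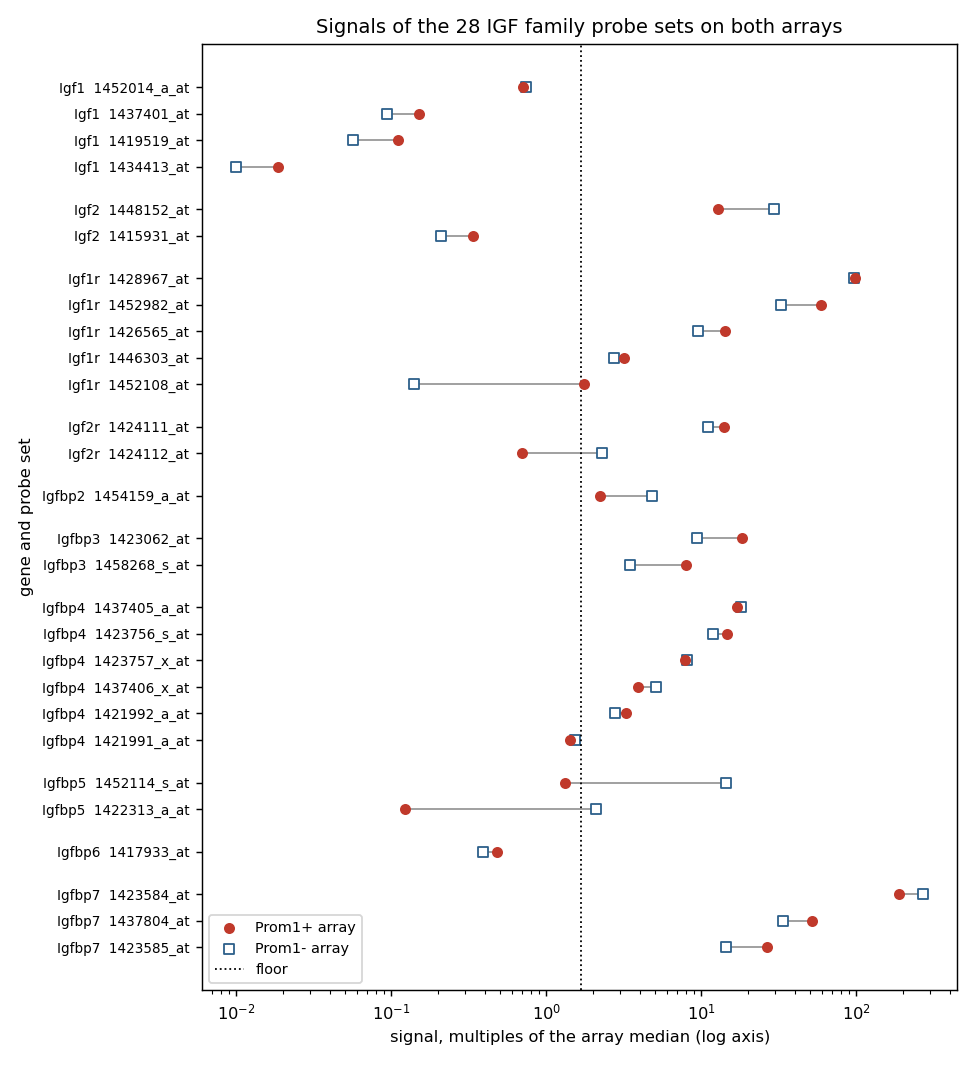
Signals of the 28 IGF probe sets on a log axis, in multiples of the array median, with filled circles for the Prom1+ array, open squares for the Prom1- array and a dotted line at the floor of 1.67. Both Igfbp5 probe sets lie under the floor on the Prom1+ array and above it on the Prom1- array, and all 4 Igf1 probe sets lie under it on both.

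Igfbp2 and Igfbp5, which were both lower on the Prom1+ array, are next to each other on chromosome 1 among protein-coding genes, and Igfbp3, which had the only higher probe set, is next to Igfbp1 on chromosome 11. Their promoters are shown because these are the binding proteins with probe sets past 2-fold. Each sequence runs from 250 bases before the start of transcription to 50 after it, on the strand of the gene, from RefSeq on the GRCm38.p6 assembly. Capitals mark the GC box GGGCGG, searched with the TATA box TATAAA on both strands, where matches to the 2 motifs may overlap.
Igfbp2, chr1:72824230-72824529, plus strand: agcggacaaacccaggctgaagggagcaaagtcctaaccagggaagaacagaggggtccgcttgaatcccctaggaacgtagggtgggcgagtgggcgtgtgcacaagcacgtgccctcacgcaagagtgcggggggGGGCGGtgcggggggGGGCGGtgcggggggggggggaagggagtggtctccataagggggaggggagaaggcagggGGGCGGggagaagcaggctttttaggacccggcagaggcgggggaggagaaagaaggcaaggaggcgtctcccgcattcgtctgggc
Igfbp5, chr1:72874816-72875115, minus strand: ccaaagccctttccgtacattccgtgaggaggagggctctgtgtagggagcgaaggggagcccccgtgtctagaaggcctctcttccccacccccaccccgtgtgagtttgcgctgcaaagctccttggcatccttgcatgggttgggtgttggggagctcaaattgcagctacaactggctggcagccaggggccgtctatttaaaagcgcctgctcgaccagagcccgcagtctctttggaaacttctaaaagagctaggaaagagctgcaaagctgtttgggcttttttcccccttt
Igfbp3, chr11:7213874-7214173, minus strand: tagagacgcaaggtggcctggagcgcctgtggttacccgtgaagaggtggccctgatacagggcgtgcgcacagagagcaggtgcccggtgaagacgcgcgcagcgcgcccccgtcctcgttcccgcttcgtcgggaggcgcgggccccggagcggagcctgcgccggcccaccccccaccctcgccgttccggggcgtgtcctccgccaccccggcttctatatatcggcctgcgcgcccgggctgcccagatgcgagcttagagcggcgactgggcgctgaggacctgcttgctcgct

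The Igfbp2 window, the first of 2 in RefSeq, held 3 GC boxes and was 67.0% G and C, with 18 CpG dinucleotides. The neighboring Igfbp5 window held neither motif, at 56.3% G and C and 10 CpG, and the Igfbp3 window held neither at 71.7% and 37 CpG. Over all 14 windows of the 10 genes, 6 held a GC box (42.9%) and 2 a TATA box (14.3%), beside 35.7% and 13.6% of 32851 promoter windows of the same length. The family therefore held both motifs at shares near those of all promoters. The TATA box of Igfbp4 began 28 bases before its start, and its gene did not pass 2-fold. The median window of all genes was 52.7% G and C. A match describes letters in a window, not a site in use.

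Igf1 encodes the ligand that mediates much of the action of growth hormone. On the Prom1+ array its 4 probe sets gave signals of 0.702, 0.151, 0.110 and 0.0187 times the median, and on the Prom1- array 0.741, 0.0940, 0.0565 and 0.010 times. All were under the floor on both arrays, so no ratio is given, and this does not show that the transcript was absent. The value of 0.010 is the lowest in the table.

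Igf2 encodes the fetal growth factor, an imprinted gene that in adult brain is known from meninges and choroid plexus. Its probe set 1448152_at had 12.9 times the median on the Prom1+ array and 29.4 times on the Prom1- array. It was 2.28-fold lower in Prom1+ endothelium, a log2 ratio of -1.19 beside a median of 0.85 for the 1000 nearest in signal. Of those 1000, 370 were at least 2-fold higher and 15 at least 2-fold lower, so that Igf2 differed in the direction few probe sets of its brightness took. After loess correction of the shift with signal, it was 4.10-fold lower. The other probe set of Igf2, 1415931_at, was under the floor with 0.338 times the median on the Prom1+ array and 0.208 times on the Prom1- array. Thus the difference in Igf2 rests on a single probe set. Ins2, an insulin gene that lies beside Igf2 and was picked after its values were seen, was also under the floor, at 0.0650 and 0.991 times the median on the Prom1+ and Prom1- arrays.

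Igf1r, the receptor kinase, was measured by 5 probe sets, of which the 4 above the floor on both arrays differed by less than 2-fold. The brightest, 1428967_at, had 98.5 times the median on the Prom1+ array and 96.9 times on the Prom1- array, a log2 ratio of 0.02 beside 0.21 for probe sets of like signal. Probe set 1452982_at had 59.1 times on the Prom1+ array and 32.5 times on the Prom1- array, a 1.82-fold difference. Its log2 ratio of 0.86 came down to 0.24 after loess correction. The disagreement of 0.54 between probe sets of a gene was measured before this correction, so the corrected value is not set against it. Probe sets 1426565_at and 1446303_at gave log2 ratios of 0.57 (14.2 and 9.55 times the median, Prom1+ and Prom1-) and 0.22 (3.17 and 2.73 times), beside like-signal medians of 0.88 and 0.63. The last, 1452108_at, passed the floor on the Prom1+ array alone, with 1.76 times the median there and 0.140 times on the Prom1- array, and was at least 1.05-fold higher, a bound that leaves its fold unknown. The receptor transcript was thus bright on both arrays, and after loess correction its 4 probe sets measured on both lay between -0.32 and 0.24.

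Igf2r encodes the cation-independent mannose 6-phosphate receptor, which clears IGF2 and also carries newly made enzymes to lysosomes. Probe set 1424111_at had 14.1 times the median on the Prom1+ array and 11.1 times on the Prom1- array, a log2 ratio of 0.34 beside 0.86 for probe sets of like signal and -0.54 after loess correction. Probe set 1424112_at was under the floor on the Prom1+ array, with 0.700 times the median, and had 2.28 times on the Prom1- array, which makes it at least 1.36-fold lower, with a loess bound of -0.37. The sign of the brighter probe set depended on the scaling, so that the probe sets differ in sign as deposited and are both negative after loess. A probe set assigned to both Igf2r and its antisense RNA Airn was left out.

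**Figure D2:**
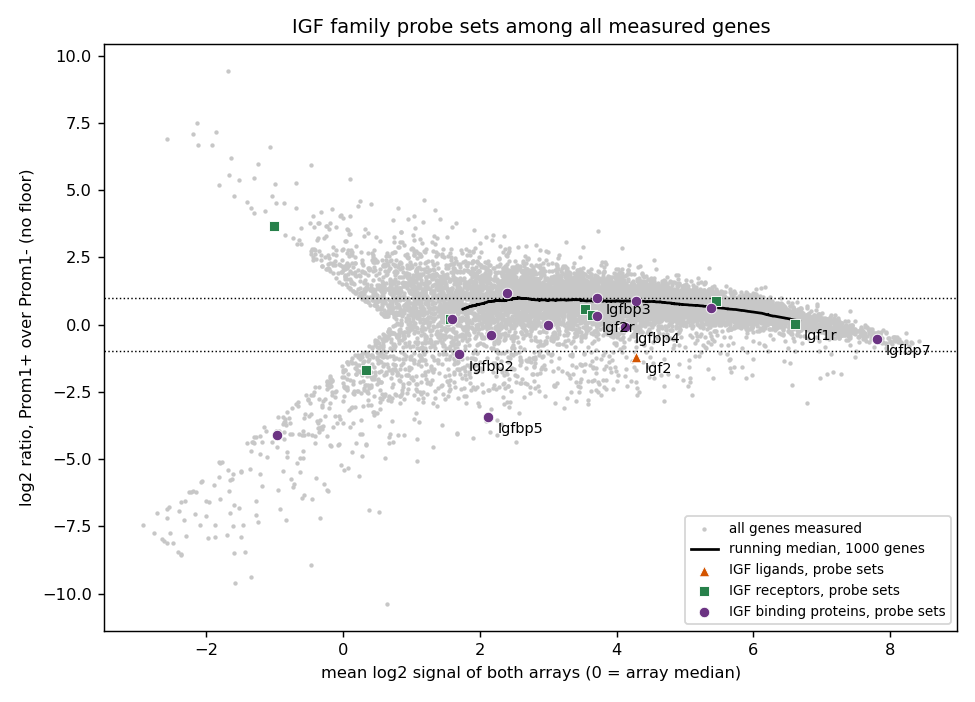
Log2 ratio of each measured gene without a floor, Prom1+ over Prom1-, against its mean log2 signal, where 0 is the array median, with a running median over 1000 genes measured on both arrays and dotted lines at 2-fold. Colored symbols are the 21 measured IGF probe sets, the brightest of each gene named, and Igf2, Igfbp2 and Igfbp5 lie well under the running median while Igfbp3 lies near it.

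Igfbp2 encodes a carrier found in cerebrospinal fluid that also binds integrins. Its only probe set, 1454159_a_at, had 2.22 times the median on the Prom1+ array and 4.77 times on the Prom1- array, a log2 ratio of -1.11. It was 2.15-fold lower in Prom1+ endothelium, and 3.31-fold lower after loess correction. The signal on the Prom1+ array was close to the floor, and with a floor of double the height the log2 ratio was a bound of -0.51, no longer past 2-fold. Of the 1000 probe sets of like signal, 360 were at least 2-fold higher and 87 at least 2-fold lower.

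Igfbp5, a carrier that binds extracellular matrix, had the largest fold of the family with the signals floored. Probe set 1452114_s_at had 1.33 times the median on the Prom1+ array, under the floor, and 14.3 times on the Prom1- array. It was at least 8.56-fold lower in Prom1+ endothelium. Probe set 1422313_a_at showed the same direction, with 0.123 times the median on the Prom1+ array and 2.11 times on the Prom1- array. It lay just above the floor on the Prom1- array, so its bound was no more than 1.26-fold lower. The brighter probe set carries the suffix _s_at, given to probe sets that can match more than 1 transcript, and without it the call on Igfbp5 is lost.

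Igfbp3 encodes the main IGF carrier of blood, where it forms a complex with the product of Igfals. Its probe set 1458268_s_at had 7.95 times the median on the Prom1+ array and 3.48 times on the Prom1- array, and was 2.28-fold higher. This is the only call of a higher member, and it too rests on a probe set with the suffix _s_at. The brighter probe set, 1423062_at, had 18.4 times on the Prom1+ array and 9.31 times on the Prom1- array, and at 1.98-fold lay just under the threshold. Their log2 ratios of 1.19 and 0.98 were close to those of their neighbors in signal, which had medians of 0.87 and 0.86. Of the 1000 nearest to the first of these, 433 were also at least 2-fold higher and 63 at least 2-fold lower. After loess correction the ratios were 0.33 and 0.11. Igfbp3 was therefore higher on the Prom1+ array by about as much as other transcripts of its brightness.

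Igfbp4, a carrier that restrains IGF action until the protease encoded by Pappa cleaves it, had 6 probe sets. The brightest, 1437405_a_at, had 17.0 times the median on the Prom1+ array and 18.1 times on the Prom1- array, a log2 ratio of -0.09. The other 4 measured on both arrays had log2 ratios of 0.31, -0.03, -0.38 and 0.22, and the last probe set was under the floor, with 1.42 times on the Prom1+ array and 1.53 times on the Prom1- array. No probe set passed 2-fold. All 5 lay below the medians of probe sets of like signal, which ran between 0.66 and 0.87. After loess correction their log2 ratios were between -1.20 and -0.31, and 1 of them, 1437406_x_at, was at least 2-fold lower. These probe sets share a target and are not replicates of the population.

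Igfbp6, a carrier that prefers IGF2, was under the floor, with 0.482 times the median on the Prom1+ array and 0.391 times on the Prom1- array. Igfbp7 encodes a relative of low affinity for IGFs that is deposited in the basement membrane of vessels. Its brightest probe set, 1423584_at, had 187 times the median on the Prom1+ array and 269 times on the Prom1- array, 1.44-fold lower with a log2 ratio of -0.52. Probe sets 1437804_at (51.6 and 33.5 times, Prom1+ and Prom1-) and 1423585_at (26.6 and 14.4 times) had log2 ratios of 0.62 and 0.88. The 3 probe sets of Igfbp7 thus gave opposite signs, and after loess correction all 3 lay between -0.08 and 0.04. Probe sets of like signal had median log2 ratios of -0.10, 0.66 and 0.85.

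After loess correction of the whole table, 0 of the 21 IGF probe sets were at least 2-fold higher, where 6.45% of all measured probe sets were. At least 2-fold lower were 4, namely probe sets of Igf2, Igfbp2, Igfbp5 and Igfbp4 named above, where 7.57% of all were. The calls depended on how the arrays were made comparable. Setting the median of 17 pan-endothelial genes equal, a shift of 0.24 in log2, gave 0 higher and 3 lower. Setting the 2% trimmed means equal, a shift of 0.54, gave 0 and 4, and quantile normalization gave 0 and 3. Setting the 18 hybridization controls equal, where the arrays differ by -1.02, gave 11 higher and 1 lower. That shift raised the ratios of all probe sets measured on both arrays, not only those of the members. For scalings other than the deposited one and loess, shares over all probe sets are not given, so these counts describe the members alone. Igf2 kept a negative ratio under all 6 scalings, between -2.04 and -0.17, as did Igfbp2, between -1.73 and -0.08. Igfbp5 was at least 2-fold lower under all 6, between -3.53 and -2.41. Only its -2.41, with the hybridization controls equal, had both signals above the floor, and its other values are bounds. Both Igfbp3 probe sets kept a positive ratio, between 0.11 and 2.01 for the brighter and between 0.33 and 2.22 for the other. The signs of the brightest probe sets of Igf1r, Igf2r, Igfbp4 and Igfbp7 depended on the scaling.

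**Figure D3:**
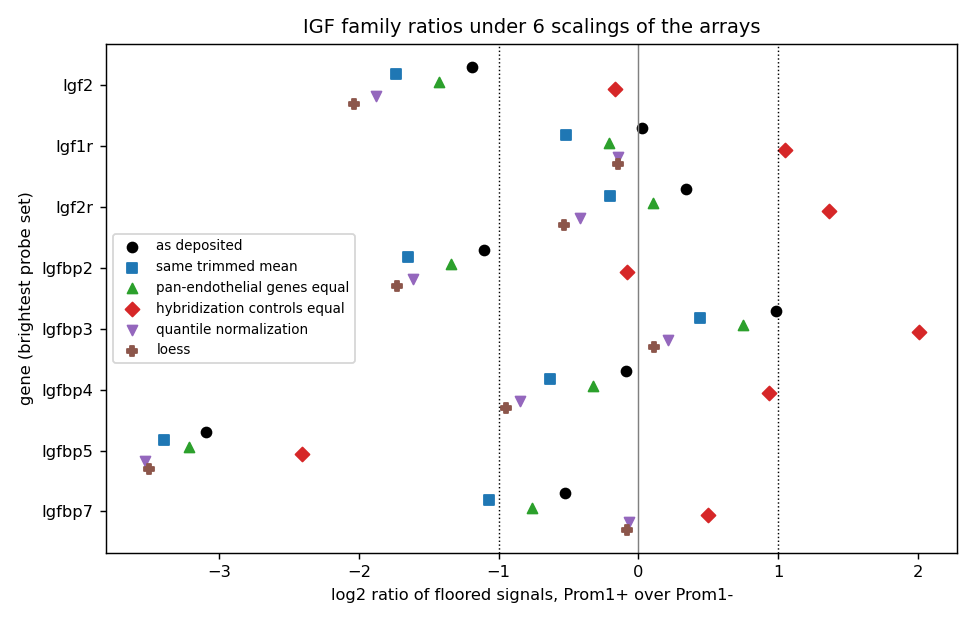
Log2 ratio of floored signals, Prom1+ over Prom1-, for the brightest probe set of the 8 measured IGF genes under 6 scalings, with dotted lines at 2-fold. Igfbp5 stays left of the lower line throughout, Igf2 and Igfbp2 pass it in 5 scalings and keep a negative ratio with the hybridization controls equal, and Igf1r, Igf2r, Igfbp4 and Igfbp7 change sign.

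Other genes of the pathway were taken as 6 lists with 80 genes on the array. Of these, 61 were measured, 17 were at least 2-fold higher on the Prom1+ array (27.9%, beside 28.2% of all genes), 0 were lower (beside 4.77%) and 44 were not called. Over the 61 the median log2 ratio was 0.70, close to 0.66 over all genes. By list the medians were 0.60 to 0.87, except for the proteases and their inhibitors at -0.00. The counts by list below are to be read beside the same 28.2%. Single genes of the lists were not set beside probe sets of like signal, where the general shift reached 0.87 at a mean log2 signal of 3 to 4.

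Among other carriers and relatives of the binding proteins, 2 of 4 measured genes were higher and 0 lower. The serine proteases Htra1 (56.7 times the median on the Prom1+ array and 23.3 times on the Prom1- array) and Htra3 (12.4 and 5.28 times), which share a domain with the binding proteins, were 2.43-fold and 2.35-fold higher. The value of Htra1 was read from a probe set with the suffix _x_at. Kazald1, a further relative, had 2.80 times on the Prom1+ array and 3.11 times on the Prom1- array. Igfbp1, the insulin-responsive carrier next to Igfbp3 and picked after its values were seen, passed the floor on the Prom1+ array alone, with 2.21 times there and 0.632 times on the Prom1- array, and was at least 1.32-fold higher. Igfals, the partner of Igfbp3 in blood, was under the floor on both, as were Igfbpl1 and Esm1.

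Of 16 proteases that cleave binding proteins and their inhibitors, 6 were measured and none was called, with a median log2 ratio of -0.00. Timp3, an inhibitor of metalloproteases, had 103 times the median on the Prom1+ array and 110 times on the Prom1- array, and the lysosomal protease Ctsd had 78.7 and 74.4 times. Plat, the tissue plasminogen activator, had 67.7 times on the Prom1+ array and 40.9 times on the Prom1- array, 1.66-fold apart, and the inhibitor Timp2 had 24.7 and 28.4 times. Pappa and Pappa2, the proteases of Igfbp4 and Igfbp5, were under the floor on both arrays together with their inhibitors Stc1 and Stc2.

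Of 15 measured genes of the insulin receptor and its adaptors, 1 was higher and 0 lower, with a median log2 ratio of 0.60. The higher gene was Ide, the insulin-degrading enzyme, with 35.2 times the median on the Prom1+ array and 14.7 times on the Prom1- array, 2.39-fold apart. The insulin receptor Insr, picked after its values were seen because it pairs with the IGF1 receptor, had 63.7 times on the Prom1+ array and 43.2 times on the Prom1- array. The adaptors Grb10 (93.8 and 86.9 times) and Grb2 (82.9 and 74.2 times) differed by less than 1.5-fold, and Irs1, the docking protein of both receptors, had 3.21 times on the Prom1+ array and 5.60 times on the Prom1- array. Among 22 genes listed for PI3K and AKT signaling, 8 were higher and 0 lower, with a median log2 ratio of 0.83. The largest ratio was that of Pdk1 (27.3 times on the Prom1+ array and 7.20 times on the Prom1- array), but this symbol names pyruvate dehydrogenase kinase, which is no part of that pathway, and without it 7 of 21 were higher with a median of 0.81. The kinase Gsk3b (89.8 and 79.5 times, Prom1+ and Prom1-) and the transcription factor Foxo3 (87.4 and 96.7 times) did not pass 2-fold, and Pik3r2, a regulatory subunit of PI3K, had 2.31 and 3.37 times.

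Of 4 measured genes among IGF mRNA binding proteins and imprinted neighbors, 2 were higher and 0 lower. Plagl1, an imprinted zinc finger factor known to act on Igf2 in mouse, passed the floor on the Prom1+ array alone. It had 14.6 times the median there and 1.44 times on the Prom1- array, and was at least 8.72-fold higher. The value of Plagl1 was read from a probe set with the suffix _x_at. Cdkn1c, an imprinted cell cycle inhibitor, had 23.0 times on the Prom1+ array and 9.17 times on the Prom1- array and was 2.51-fold higher. Airn had 3.33 and 2.51 times, and Igf2bp1, Igf2bp3 and the imprinted gene Dlk1 were under the floor. Of the 10 genes that sort lysosomal enzymes with Igf2r, 4 were higher and 0 lower, with a median log2 ratio of 0.80. Gnptab, which makes the mannose 6-phosphate tag, had 13.6 times on the Prom1+ array and 5.56 times on the Prom1- array and was 2.44-fold higher. M6pr, the other mannose 6-phosphate receptor, had 75.7 and 51.2 times, the retromer subunit Vps26a had 73.4 and 54.4 times, and the sorting receptor Sort1 had 16.0 and 15.5 times.

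**Figure D4:**
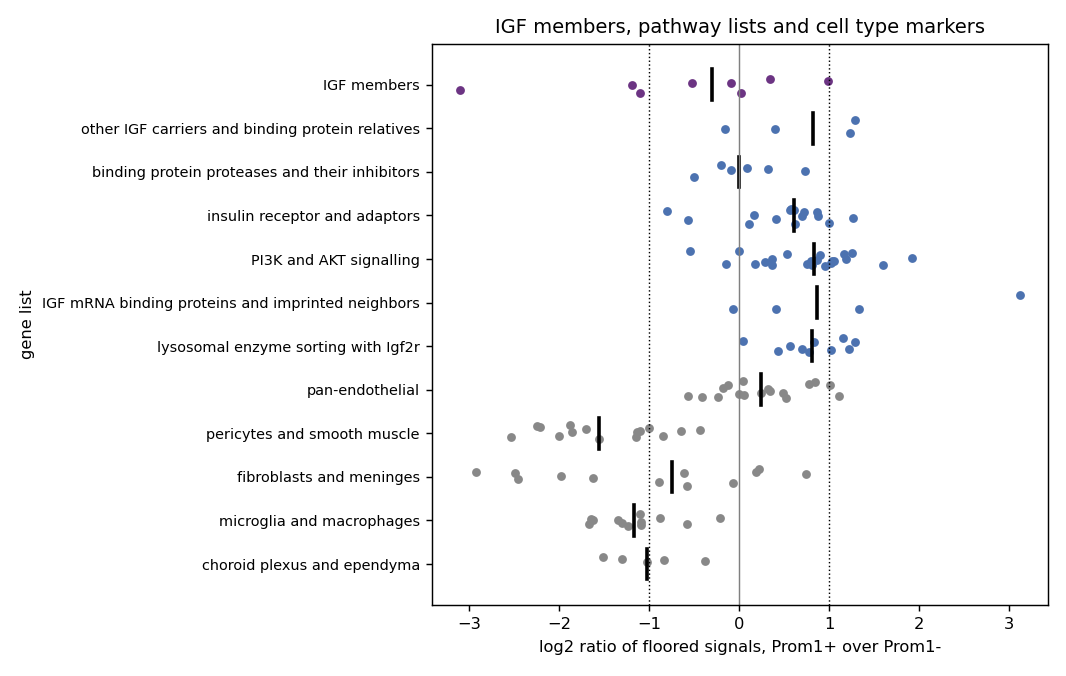
Log2 ratio of floored signals, Prom1+ over Prom1-, for each measured gene of the IGF members, of 6 pathway lists and of 5 cell type marker lists, with vertical bars at the medians and dotted lines at 2-fold. The IGF members have a median of -0.31. The pathway lists lie at 0.60 to 0.87, except for the proteases at -0.00, and the pan-endothelial genes at 0.24. The other marker lists lie at -0.75 (fibroblasts and meninges), -1.02 (choroid plexus and ependyma), -1.17 (microglia and macrophages) and -1.56 (pericytes and smooth muscle).

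Some lists of markers of other brain cells were lower on the Prom1+ array, as Igf2, Igfbp2 and Igfbp5 were, and others were mixed. Both populations were sorted for CD31, a gate meant to leave these cells out. The sums below add signals of different probe sets, so they follow the brightest ones and do not measure how many cells of a type were present. Neither sums nor counts of markers were corrected for the shift with signal. Of 15 pericyte and smooth muscle markers, 0 were higher and 12 lower on the Prom1+ array, with summed signals of 497 times the median on the Prom1+ array and 1383 times on the Prom1- array. All 15 reached the floor on at least 1 array, and the brightest were Acta2 (81.6 and 295 times, Prom1+ and Prom1-) and Rgs5 (95.9 and 206 times). Of 12 measured markers of fibroblasts and meninges, 0 were higher, 5 lower and 7 not called, with sums over the list of 240 times on the Prom1+ array and 592 times on the Prom1- array. Its brightest genes differed in what they showed, since Ptgds was 7.57-fold lower (40.3 and 305 times) and Foxc1 was not (107 and 94.0 times). Lum and Aldh1a2 were under the floor on both arrays.

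Choroid plexus and ependyma had 5 of 10 markers measured, of which 0 were higher and 3 lower. Their sums were 216 times the median on the Prom1+ array and 442 times on the Prom1- array, nearly all of it Ttr (210 and 426 times). Ttr was among the brightest genes, where the general shift was itself negative, at -0.64 for a mean log2 signal of 8 to 9. Folr1 had 0.918 times on the Prom1+ array, under the floor, and 4.79 times on the Prom1- array, and Kl, Foxj1, Ccdc153, Tmem212 and Aqp1 were under the floor. Of 12 measured markers of microglia and macrophages, 0 were higher and 9 lower, with sums of 118 times on the Prom1+ array and 263 times on the Prom1- array, among them C1qb (31.8 and 78.7 times) and Csf1r (33.6 and 71.5 times), whereas Ptprc and Itgam were under the floor. The 17 pan-endothelial genes had sums of 2005 times on the Prom1+ array and 2030 times on the Prom1- array, with 2 higher and 0 lower, and the brightest were Cldn5 (219 and 326 times, Prom1+ and Prom1-) and Flt1 (172 and 229 times).

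The astrocyte, oligodendrocyte and neuron lists were mixed. Of 7 measured astrocyte markers 1 was higher and 2 lower, with sums of 119 times the median on the Prom1+ array and 118 times on the Prom1- array, and Gja1 (84.5 and 67.0 times) and Slc1a3 (17.7 and 18.5 times) were the brightest. Gfap, Aqp4 and Aldh1l1 were under the floor on both. Of 6 oligodendrocyte markers 1 was higher and 2 lower, with sums of 220 times on the Prom1+ array and 442 times on the Prom1- array, led by Mbp (119 and 271 times) and Mobp (56.9 and 153 times), and Mag, Olig1, Olig2 and Sox10 were under the floor. Of 4 neuron markers 0 were higher and 2 lower, with Stmn2 at 79.5 times on the Prom1+ array and 45.1 times on the Prom1- array and Syt1 at 0.0152 and 10.2 times, while Rbfox3, Tubb3, Gad1, Slc17a7, Slc32a1 and Dcx were under the floor. The part of these cell types in the lower signals of Igf2, Igfbp2 and Igfbp5 was not tested.

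The genes most like Igfbp3 and Igf2 in their pair of signals, by Euclidean distance over the 2 log2 values, were looked up because these members had the highest and lowest ratios among those measured on both arrays. Nearest to Igfbp3 were Cyhr1, Man2c1os and Lrrc45, at distances of 0.02, and nearest to Igf2 were Extl2, Synpo and Gpm6b, at 0.12 to 0.20.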

How the data were processed

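Transcripts of CD31+ Prom1+ and CD31+ Prom1- cells were measured on 2 arrays, 1 per population. The authors extracted total RNA with the RNeasy kit, labeled it with the Ovation Biotin system, scaled the signals to a target of 500 in the GeneChip Operating Software and normalized them in GeneSpring, and the submitters' processing notes name MAS5. Each deposited value is a log2 signal relative to the median of that array, since both columns have a median of 0, and the lowest is -6.64. The sources used here describe neither the step that set the median nor detection calls.

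The log2 values were converted to multiples of the median. The floor of 1.67 is 100 on the scale of the target of 500, translated through the 2% trimmed means of the Prom1+ array (9.94) and the Prom1- array (6.81), averaged. It was reached by 44.6% of probe sets on the Prom1+ array and 42.9% on the Prom1- array, and the 27 Bacillus control probe sets were at most 0.234 and 0.276 times the median. Differences were counted by a fold of at least 2. With 1 array per group no test was run, and the number of arrays limits the precision. The brightest probe set, by the mean of both signals, stood for a gene. The shift with signal was removed by a loess fit with a span of 0.2.

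The platform annotation gives 34958 probe sets 1 symbol and 932 several, which were left out of gene results, and 9211 are not listed. Of the first, 34750 were found by gene identifier in a RefSeq table of GRCm38.p6, and all 10 members were matched. The files name no build, so the table served for names, neighbors and promoters only.

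The text names every probe set of the members, the 2 brightest genes of each list, the gene with the largest ratio each way in each pathway list among those measured on both arrays, markers under the floor, and the 3 genes nearest in signal to 2 members. The members, lists and this rule were chosen with earlier results of these data known. Some genes of the lists were not analysed here. Endothelial zone lists were counted in the same way. Arterial markers were led by Mgp (165 times the median for Prom1+ and 261 times for Prom1-) and Hey1 (90.0 and 82.7 times), with 2 of 10 measured higher, 0 lower and Gja5 under the floor. Capillary markers were led by Spock2 (194 and 315 times) and Slc2a1 (191 and 300 times), with 0 of 10 higher and 0 lower. Venous markers were led by Vwf (159 and 126 times) and Slc38a5 (118 and 44.1 times), with 6 of 9 higher, 0 lower and Selp under the floor. Alternatives were other floors, folds, scalings and probe set choices. The rules were tested on simulated data. The work was done in Python 3.11.15, with pandas 2.3.3 and numpy 2.4.6 for tables, statsmodels 0.14.6 for loess and matplotlib 3.10.9 for plots.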

Additional observations from a re-analysis of the deposited data

How the results depend on the processing

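The counts of IGF probe sets past 2-fold, 1 higher and 3 lower on the Prom1+ array, depended on several choices. With a floor of 50 in place of 100 on the target scale, or with no floor, 2 were higher and 5 lower, and with a threshold of 3-fold 0 were higher and 1 lower, while at 1.5-fold 5 were higher. Scaling by the trimmed mean, by the pan-endothelial genes, by quantiles or by loess left 0 higher, as did leaving out probe sets with the suffixes _x_at and _s_at. Setting the hybridization controls equal gave 11 higher and 1 lower. With a floor of 200, or without those suffixes, 2 were lower. By gene, 0 were higher and 3 lower. The higher count became 1 at 1.5-fold, 2 with the mean over the probe sets of a gene and 3 with the hybridization controls equal. The lower count became 1 at 3-fold or with the hybridization controls equal, and 4 with equal trimmed means. It became 2 with a floor of 200 on the target scale, with the mean over probe sets, or without the suffixes _x_at and _s_at. The median log2 ratio of the member genes, -0.31, was -0.85 with equal trimmed means and 0.72 with equal hybridization controls. The causes of these changes were not tested. Shares over all measured probe sets or genes are not given for these alternatives, loess aside, so these counts describe the members alone. The median log2 ratio over all measured probe sets, 0.64, was itself past 1.5-fold, the threshold at which 5 IGF probe sets were higher. Without its _s_at probe set Igfbp5 had a bound of -0.33, and as a mean over both probe sets -1.71. The mean over probe sets moved Igf2 to -0.25, Igf1r to 1.07, Igf2r to -0.68 and Igfbp7 to 0.33. For this choice log2 signals were averaged before the floor was applied. The means of Igf2, Igf1r and Igf2r thus rest in part on signals read as not measured. Among these were 0.140 times the median for Igf1r (1452108_at, Prom1- array) and 0.338 and 0.208 times for Igf2 (1415931_at, Prom1+ and Prom1-). Igf2, Igfbp2 and Igfbp5 kept a negative and Igfbp3 a positive log2 ratio under all 10 alternatives run on single genes, but some of these could not change a value. The other floors, and leaving out the suffixes _x_at and _s_at, left Igf2 at -1.19 and Igfbp3 at 0.98. Igfbp2 has 1 probe set and changed only with the scalings and the higher floor. Signals under the floor limit what can be said of Igf1 and Igfbp6, and 1 array per population leaves the spread between animals unknown. No paired analysis was possible because each population has 1 array.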
